A study of Mus musculus with 8 samples.

Results

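Actin filaments and the proteins that shorten, bundle and anchor them give an astrocyte its shape and its grip on the culture surface. The 45 genes described here encode actins, myosin chains, tropomyosins, filament crosslinkers, adhesion proteins, regulators of filament turnover and the GTPases and kinases that control contraction. They were taken from the 21878 genes of the deposited table by symbol from a list of names, and all 45 were found. All 45 also passed the filter on low values, which kept the 11845 genes that reached 1 FPKM in 4 or more libraries. FPKM counts fragments relative to gene length and to the size of the library.

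RNA was sequenced from brain astrocytes of wild-type C57BL/6 mice isolated at postnatal day 0. The 4 untreated libraries were compared with 4 libraries of astrocytes given IL-1α, TNFα and C1q together, called the cocktail below, which the submitters used to obtain C3d+ reactive cells. In 3 of the 4 cocktail libraries the label spells C1q with another digit, and libraries were grouped by title. The sources used here do not give the dose and duration of the cocktail, the number of animals pooled or the passage of the cells. It is also not stated whether the libraries of a group came from separate cultures, so a p-value rests on differences among libraries of a group, and these may be technical.

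Actin monomers exchange with filaments under the control of profilin, cofilin, the thymosins and nucleators such as the Arp2/3 complex. Serum response factor (SRF) is a transcription factor that reads this state: its coactivators, the myocardin-related transcription factors, bind free actin monomers and act with SRF in the nucleus when monomers are used up. Its textbook targets include smooth muscle and cytoplasmic actins, transgelin, calponin, vinculin and SRF itself. Astrocytes in culture are known to form stress fibers and to express several of these genes. The 45 genes were therefore divided by general knowledge into 21 SRF-regulated contractile genes and 24 genes of general actin assembly. Actb and Actg1, which are SRF targets as well as the building blocks of every cell, were placed in the second list.

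Total depth lay between 19195898 and 20640490 fragments per library. Astrocyte markers were present in both groups, and 10 of them summed to between 1345 and 1496 FPKM in untreated and between 1200 and 1224 FPKM in cocktail libraries. Of the 10, 7 were called lower and 2 higher: Gfap went from 412 ± 29.6 to 189 ± 5.41 FPKM and Slc1a2 from 9.73 ± 0.579 to 52.3 ± 1.17 FPKM (SD, n = 4). S100b was low, at 1.18 ± 0.169 and 0.291 ± 0.146 FPKM (SD, n = 4). Markers of other cells were also present. The 7 oligodendrocyte lineage markers summed to between 208 and 222 FPKM in untreated and between 118 and 122 in cocktail libraries, and the 6 ependymal markers to between 148 and 164 and between 126 and 143. Of the ependymal markers 3 were called lower and 1 higher: Foxj1 went from 116 ± 5.63 to 70.9 ± 5.44 FPKM and Rarres2 from 18.4 ± 1.79 to 56.1 ± 2.19 FPKM (SD, n = 4). Ccdc153, Ak7 and Tmem212 were low, at 1.22 ± 0.149, 0.466 ± 0.125 and 0.0342 ± 0.0395 FPKM in untreated libraries (SD, n = 4). The 7 neuronal markers summed to between 149 and 167 and between 78.0 and 82.8 FPKM, most of it in untreated libraries from Stmn2, at 125 ± 6.7 and 38.8 ± 2.89 FPKM (SD, n = 4). Gap43 rose from 10.3 ± 0.691 to 28.3 ± 2.13 FPKM (SD, n = 4), and the defining neuronal markers Rbfox3 and Snap25 were near 0, at 0.0355 ± 0.0166 and 0.0526 ± 0.0476 FPKM in untreated libraries (SD, n = 4). The 9 microglial markers summed to 15.5 and 16.1 FPKM in cocktail libraries 1 and 2 and to 34.2 and 46.4 in cocktail libraries 3 and 4, against 11.1 to 12.7 in untreated libraries. Their part in the results below was not tested, and values without libraries 3 and 4 are given where a call rests on them. In bulk RNA, fewer cells of a type and less RNA per cell cannot be told apart.

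Most of the 45 genes fell after the cocktail. The deepest falls were those of contractile genes, though not every contractile gene fell. A gene was called where limma's test on log2(FPKM + 1) gave an adjusted p under 0.05, and all log2 changes below are cocktail minus untreated on that scale. A change of at least 2-fold means at least 1 on that scale. Of the 45 genes, 36 fell and 3 rose, while 41.1% of all tested genes were called lower and 26.6% higher, 67.7% in all. The direction of small changes depends on scaling: 39.3% of all calls were rises with FPKM as deposited and 49.8% after median-ratio scaling. Of the 45, 11 fell at least 2-fold, which is 24.4%, against 4.56% of all tested genes. None of the 45 rose at least 2-fold, against 4.08% of all tested genes. In 35 genes every cocktail library lay below every untreated library, and in 3 genes every cocktail library lay above, against 38.5% and 24.1% of all tested genes. The median log2 change was -0.44 over the 45 genes and -0.05 over all genes tested.

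Among the 21 SRF-regulated contractile genes 18 fell, 1 rose and 2 were not called, with a median log2 change of -0.82. Among the 24 assembly genes 18 fell, 2 rose and 4 were not called, with a median of -0.27. The lists therefore differed little in the number of falls and more in their size: 9 contractile genes fell at least 2-fold, against 2 assembly genes, which were Actb and Actg1. With those 2 counted as SRF-regulated, 11 genes of that list and 0 of the assembly list fell at least 2-fold. The difference between the lists was not tested, since they were drawn up with earlier results of these data known.

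The 45 genes together took 2.34% ± 0.0717 of the fragments without and 1.37% ± 0.02 with the cocktail (SD, n = 4 in each group). The contractile genes went from 0.986% ± 0.043 to 0.437% ± 0.00985, and the assembly genes from 1.36% ± 0.03 to 0.938% ± 0.0143 (SD, n = 4). For all 3 shares each cocktail library lay below each untreated library.

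**Figure D1:**
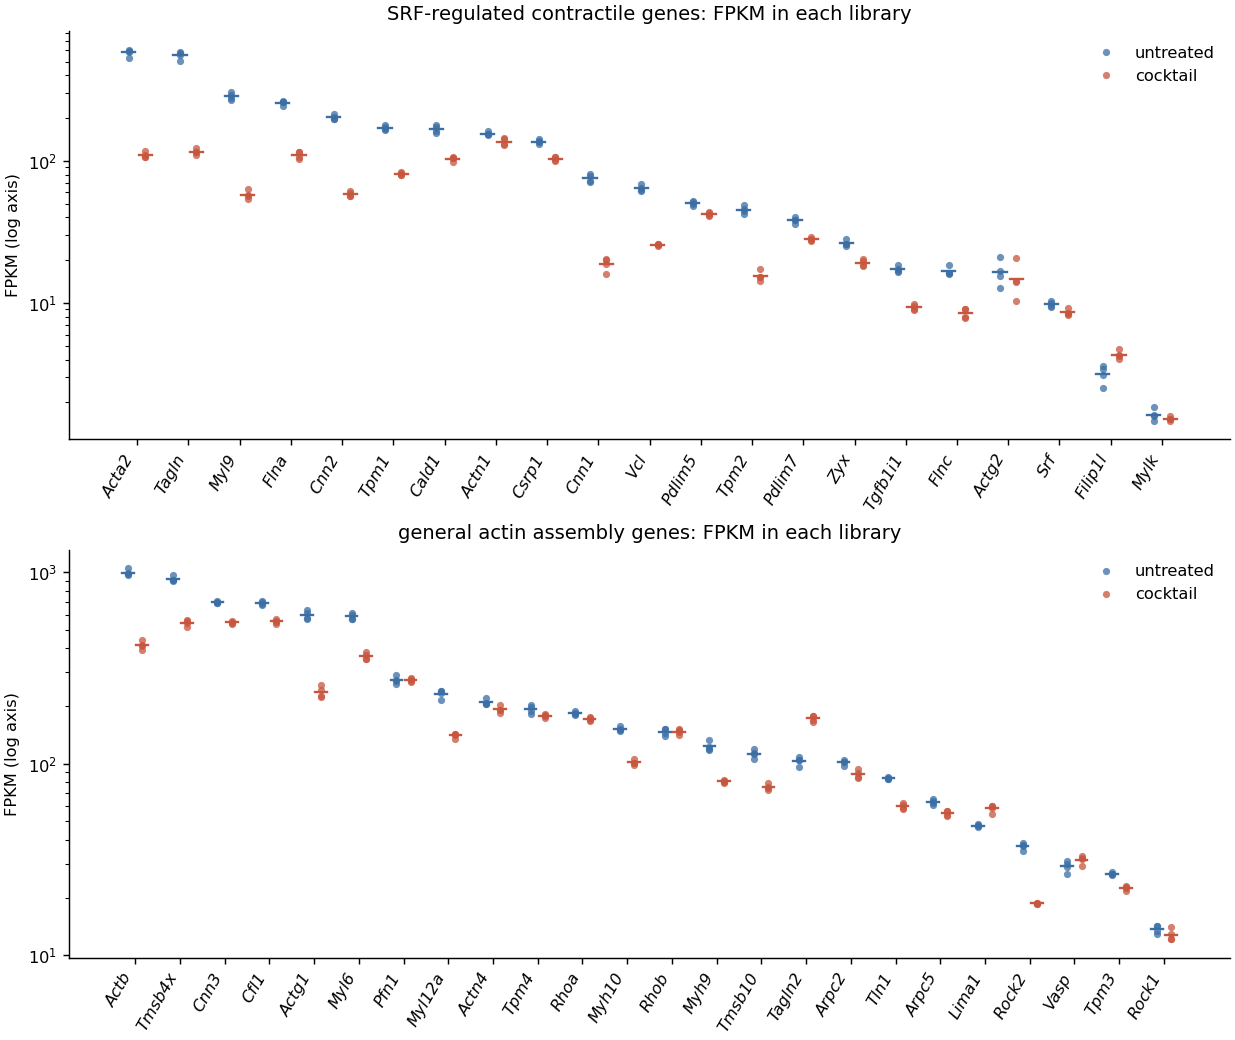
FPKM of each gene on a log axis, 1 point a library and a short line at the mean of the 4 libraries of a group. Upper panel, the 21 SRF-regulated contractile genes; lower panel, the 24 assembly genes, both ordered by untreated level. The groups are far apart for Acta2, Tagln and Myl9 and overlap for Actg2, Mylk, Pfn1, Rhob, Vasp, Rock1 and Tpm4.

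The promoters of several of these genes carry the DNA element that SRF binds, the CArG box: 2 C, then 6 bases that are each A or T, then 2 G. RefSeq promoter windows of GRCm38.p6, 250 bases before to 50 bases after a transcript start, were searched for it. The element reads as the same pattern on both strands, so 1 search covered both. Windows were found for 40 of the 45 genes. Actg2, Tagln, Tgfb1i1, Actb and Rock1 had no window and could not be searched. A box was present in 5 of 18 contractile genes with a window (27.8%) and in 3 of 22 assembly genes (13.6%), against 488 of all 27025 genes with a window (1.81%) and 141 of 9545 tested genes with a window (1.48%). SRF control was one reason for placing genes in the contractile list, so its share is not independent of that choice. A match describes letters and not a bound site, and genes without a match may carry boxes outside the window. The sequences give each box in capitals, 5′ to 3′ on the strand of the gene, for genes that fell strongly, for Srf and for 2 genes that rose. The 2 Acta2 lines are near-boxes with 1 G or C among the 6 central bases, a pattern found in 9.69% of genes with a window, and both lie in a first exon that GENCODE draws further upstream.
Acta2, chr19:34255438-34255467, minus strand: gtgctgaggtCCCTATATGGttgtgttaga
Acta2, chr19:34255388-34255417, minus strand: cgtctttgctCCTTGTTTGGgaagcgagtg
Myl9, chr2:156775288-156775327, plus strand: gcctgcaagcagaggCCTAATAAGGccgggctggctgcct
Cnn2, chr10:79988529-79988568, plus strand: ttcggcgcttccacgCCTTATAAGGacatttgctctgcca
Vcl, chr14:20929156-20929195, plus strand: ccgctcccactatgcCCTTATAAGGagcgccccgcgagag
Actg1, chr11:120348561-120348600, minus strand: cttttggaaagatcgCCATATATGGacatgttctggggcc
Srf, chr17:46556200-46556259, minus strand: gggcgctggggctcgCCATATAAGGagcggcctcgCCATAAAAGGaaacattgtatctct
Filip1l, chr16:57549165-57549204, plus strand: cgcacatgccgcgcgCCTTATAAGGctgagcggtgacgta
Lima1, chr15:99820172-99820211, minus strand: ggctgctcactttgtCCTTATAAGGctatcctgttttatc

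Cnn2, Vcl, Filip1l and Lima1 carry the same 10 capital letters, and they did not move alike: Cnn2 and Vcl fell by 1.77 and 1.29 on the log2 scale, while Filip1l and Lima1 rose by 0.36 and 0.29. The box begins 56 bases before the transcript start in Cnn2, 227 in Vcl, 62 in Filip1l and 47 in Lima1. The starts used for Filip1l, Lima1 and Srf lie well inside the listed bounds of these genes, while those of Cnn2 and Vcl lie at or close to the listed start. Which transcripts the fragments came from was not tested. The Srf window holds 2 boxes, at 82 and 62 bases before the start. The remaining box among the 45 genes was in a window of Myl6, whose log2 change was -0.70.

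Acta2, the alpha-actin of smooth muscle and of contractile cells, stood at 586, 534, 596 and 605 FPKM in untreated libraries 1 to 4 and at 118, 110, 107 and 107 FPKM in cocktail libraries 1 to 4. All cocktail libraries were low, and the groups were far from overlapping. The mean fell from 581 ± 31.7 to 111 ± 5.48 FPKM (SD, n = 4), 5.25-fold, with a log2 change of -2.38 and a standard error of 0.044 (limma, adjusted p = 1.3e-12). Acta2 lies on chromosome 19 from 34240336 to 34255585 of GRCm38. The other smooth muscle actin, Actg2, did not follow. Its values were 12.8, 15.5, 16.7 and 20.9 FPKM in untreated and 14.2, 10.4, 14.0 and 20.8 in cocktail libraries, and the groups overlapped over most of their range (log2 change -0.16, standard error 0.175; limma, adjusted p = 0.43). Without cocktail libraries 1 and 2 its log2 change was 0.07.

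The thin filament proteins, which coat actin and govern how myosin reaches it, all fell. Tagln, transgelin, a marker of smooth muscle that binds along filaments, stood at 570, 508, 560 and 581 FPKM in untreated and at 124, 116, 110 and 115 FPKM in cocktail libraries. Its log2 change of -2.25 had a standard error of 0.046 (limma, adjusted p = 2.3e-12), a 4.78-fold fall. It lies on chromosome 9 from 45929628 to 45936058, where Pcsk7 overlaps it on the opposite strand in the GENCODE annotation. Vcl, Zyx, Tln1, Cfl1, Rhoa, Actn4 and Myl12a also overlap a protein-coding gene on the opposite strand in that annotation. Whether the counting used strand is not given in the sources used here. Cnn1, basic calponin, stood at 78.9, 72.3, 70.5 and 81.4 FPKM in untreated and at 18.8, 20.1, 20.3 and 16.0 in cocktail libraries, a 4.03-fold fall. Cnn2, a calponin of nonmuscle cells, went from 196, 197, 205 and 213 to 61.3, 59.9, 56.6 and 57.0 FPKM, a 3.46-fold fall. The groups of both calponins lay far apart, with log2 changes of -1.96 and -1.77 (limma, adjusted p = 2.2e-10 and 2.2e-12).

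Both tropomyosins of this list fell at least 2-fold. Tpm2, the beta-tropomyosin, stood at 44.3, 42.0, 45.7 and 49.2 FPKM in untreated and at 15.2, 14.2, 15.3 and 17.3 in cocktail libraries (log2 change -1.49, standard error 0.058; limma, adjusted p = 5.3e-10). Tpm1, the alpha-tropomyosin, stood at 169, 165, 173 and 180 FPKM in untreated and at 83.7, 79.4, 79.7 and 82.4 in cocktail libraries (log2 change -1.07, standard error 0.032; limma, adjusted p = 5.4e-11). Caldesmon, encoded by Cald1, changed least among the thin filament genes. It stood at 163, 156, 172 and 180 FPKM in untreated and at 105, 98.3, 107 and 104 in cocktail libraries, with no overlap (log2 change -0.69, standard error 0.043; limma, adjusted p = 4e-08).

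Myl9, the regulatory light chain of smooth muscle and nonmuscle myosin, was among the deepest falls. It stood at 279, 269, 290 and 307 FPKM in untreated and at 63.0, 56.2, 57.6 and 53.5 in cocktail libraries, 4.97-fold lower in the mean (log2 change -2.29, standard error 0.051; limma, adjusted p = 4.9e-12). Acta2, Tagln and Myl9 were the only 3 of the 45 genes with a log2 change beyond -2, a size reached by 0.447% of all genes tested. Mylk, the kinase that phosphorylates this light chain, was low in all libraries, at 1.63, 1.48, 1.85 and 1.60 FPKM in untreated and 1.53, 1.48, 1.53 and 1.59 in cocktail libraries, which rest on 234 to 305 fragments. Its groups overlapped (log2 change -0.06, standard error 0.057; limma, adjusted p = 0.37).

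All 5 crosslinker and adhesion genes fell, by very different amounts. Vcl, vinculin, which ties actin to integrin and cadherin adhesions, stood at 62.4, 61.2, 64.4 and 69.3 FPKM in untreated and at 25.8, 26, 25.2 and 26.1 in cocktail libraries (log2 change -1.29, standard error 0.037; limma, adjusted p = 4.2e-11). Flna, filamin A, which crosslinks filaments into networks, stood at 260, 243, 260 and 266 FPKM in untreated and at 116, 115, 107 and 103 in cocktail libraries (log2 change -1.22, standard error 0.041; limma, adjusted p = 1.6e-10). Every cocktail library was low for both genes. Flnc, the muscle filamin, fell 1.98-fold from 16.8 ± 1.18 to 8.49 ± 0.66 FPKM (SD, n = 4), just outside the 2-fold limit with a log2 change of -0.91, while Tpm1 at -1.07 was just inside it. Zyx, zyxin, a stress fiber and adhesion protein, fell from 26.4 ± 1.27 to 19.2 ± 1.02 FPKM (SD, n = 4). Actn1, alpha-actinin 1, stood at 154, 152, 154 and 162 FPKM in untreated and at 142, 144, 131 and 129 in cocktail libraries, close together but without overlap (log2 change -0.19, standard error 0.039; limma, adjusted p = 0.00094).

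The LIM domain and adaptor genes changed less. Tgfb1i1, the focal adhesion adaptor Hic-5, stood at 17.3, 16.5, 18.5 and 16.7 FPKM in untreated and at 9.51, 8.91, 9.13 and 9.90 in cocktail libraries (log2 change -0.82, standard error 0.045; limma, adjusted p = 1.1e-08). Pdlim7 and Csrp1, which carry LIM domains and bind filament proteins, had log2 changes of -0.43 and -0.40. Pdlim5, a LIM protein that binds alpha-actinin, changed least, at 50, 48.4, 52.2 and 51.7 FPKM in untreated and 41.8, 41, 44 and 42.7 in cocktail libraries (log2 change -0.25, standard error 0.033; limma, adjusted p = 2.9e-05). In all 3 genes the groups did not overlap. Filip1l, filamin A interacting protein 1-like, was the one contractile gene that rose. It stood at 3.10, 2.54, 3.60 and 3.44 FPKM in untreated and at 4.34, 4.01, 4.22 and 4.76 in cocktail libraries (log2 change 0.36, standard error 0.079; limma, adjusted p = 0.0016).

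Srf itself changed little. It stood at 9.33, 10, 9.54 and 10.4 FPKM in untreated and at 8.41, 9.24, 8.52 and 8.21 in cocktail libraries, with a narrow gap between the groups (log2 change -0.17, standard error 0.046; limma, adjusted p = 0.0055). Without cocktail libraries 3 and 4 the call was lost (limma, adjusted p = 0.055).

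**Figure D2:**
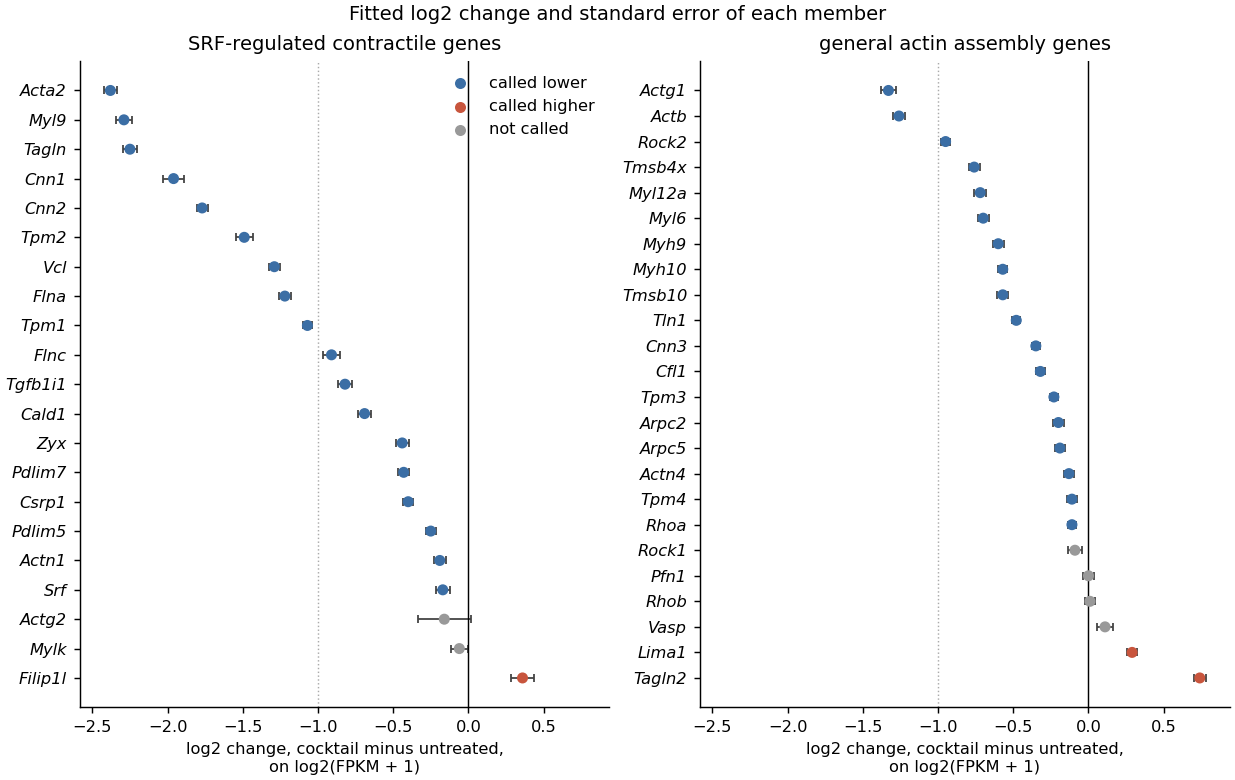
Log2 change of each gene, cocktail minus untreated on log2(FPKM + 1), with its standard error from limma over 4 against 4 libraries. Left, SRF-regulated contractile genes; right, assembly genes; the dotted line marks a 2-fold fall. The contractile list reaches from -2.38 for Acta2 to 0.36 for Filip1l, the assembly list from -1.33 for Actg1 to 0.74 for Tagln2.

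The cytoplasmic actins had the deepest falls of the assembly list. Actg1, gamma-actin, stood at 576, 570, 612 and 637 FPKM in untreated and at 243, 257, 223 and 225 in cocktail libraries (log2 change -1.33, standard error 0.050; limma, adjusted p = 3.4e-10). Actb, beta-actin, stood at 983, 967, 989 and 1051 FPKM in untreated and at 418, 441, 392 and 412 in cocktail libraries, a 2.4-fold fall of the mean. Every cocktail library was low for both genes. Actb and Actg1 together took 0.308% ± 0.0129 of the fragments without and 0.126% ± 0.00679 with the cocktail (SD, n = 4). Actin genes encode near-identical proteins, are similar in their coding sequence and have processed copies in the genome, so the counting could have moved fragments between them.

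Within the actin family the mixture shifted toward the cytoplasmic forms. The summed FPKM of the 4 actin genes went from 2193 ± 96 to 778 ± 35.4 (SD, n = 4). Acta2 made up 27.2%, 25.6%, 26.9% and 26.2% of that sum in untreated and 14.9%, 13.5%, 14.5% and 14.0% in cocktail libraries. The Actb share was 45.5% ± 0.688 and 53.4% ± 0.567, and the Actg1 share 27.3% ± 0.437 and 30.4% ± 0.802 (SD, n = 4). Actg2 was a small part in both groups, at 0.748% ± 0.126 and 1.92% ± 0.603 (SD, n = 4). In all 4 shares the groups did not overlap.

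Genes that control monomers and filament turnover divided. Tmsb4x, thymosin beta 4, the main store of actin monomers in many cells, stood at 915, 915, 900 and 966 FPKM in untreated and at 515, 542, 563 and 560 in cocktail libraries (log2 change -0.76, standard error 0.036; limma, adjusted p = 2.8e-09). Its relative Tmsb10 fell from 113 ± 5.27 to 75.7 ± 2.89 FPKM (SD, n = 4). Cfl1, cofilin 1, which severs filaments, fell from 690 ± 17.1 to 554 ± 14.2 FPKM (SD, n = 4). Pfn1, profilin 1, which feeds monomers to growing ends, stood at 275, 270, 262 and 290 FPKM in untreated and at 276, 282, 266 and 272 in cocktail libraries, and the groups overlapped (limma, adjusted p = 0.97). Its log2 change was -0.00 with a standard error of 0.034.

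Nucleation and elongation genes moved little. Arpc2, a subunit of the Arp2/3 complex, stood at 105, 97.6, 102 and 102 FPKM in untreated and at 84.5, 85.5, 94.3 and 89.0 in cocktail libraries (log2 change -0.20, standard error 0.037; limma, adjusted p = 0.00043). Arpc5, another subunit, had a log2 change of -0.19. Vasp, which elongates filaments at the leading edge and at adhesions, stood at 29, 30.1, 26.4 and 31.0 FPKM in untreated and at 29.1, 31.8, 32.1 and 33.0 in cocktail libraries, with overlap (log2 change 0.11; limma, adjusted p = 0.073). It was called higher after median-ratio scaling (limma, adjusted p = 0.009), without untreated library 4 (0.034), without cocktail library 1 (0.021) and without cocktail libraries 1 and 2 (0.031).

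The filament binding genes went both ways. Tagln2, the widely expressed relative of transgelin, stood at 108, 105, 95.8 and 105 FPKM in untreated and at 166, 177, 177 and 170 in cocktail libraries, the largest rise among the 45 genes (log2 change 0.74, standard error 0.038; limma, adjusted p = 6.5e-09). Lima1, which bundles filaments and slows their branching, rose from 47.6 ± 0.625 to 58.4 ± 2.51 FPKM (SD, n = 4), with no overlap. Tln1, talin 1, the link between integrins and actin, fell from 83.9 ± 1.05 to 59.9 ± 1.77 FPKM (SD, n = 4). Cnn3, the acidic calponin, fell from 699 ± 10.2 to 547 ± 5.98 FPKM, and Tpm3 from 26.6 ± 0.438 to 22.4 ± 0.557 FPKM (SD, n = 4).

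Tpm4 and Actn4 were near the limit of the test. Tpm4 stood at 188, 181, 197 and 203 FPKM in untreated and at 177, 179, 174 and 181 in cocktail libraries, with overlap (log2 change -0.11, standard error 0.035; limma, adjusted p = 0.015). Its call was lost after median-ratio scaling (limma, adjusted p = 0.27) and without cocktail libraries 3 and 4 (0.053). Actn4, alpha-actinin 4, went from 210 ± 7.28 to 192 ± 7.82 FPKM (SD, n = 4; limma, adjusted p = 0.0073), and its call was lost under the same settings (limma, adjusted p = 0.15 and 0.066).

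Members of the transgelin, tropomyosin and calponin families changed unequally, and the plot of family make-up shows this for transgelins and tropomyosins. Tagln made up 84.1%, 82.9%, 85.4% and 84.7% of the FPKM of the 2 transgelin genes in untreated and 42.6%, 39.5%, 38.2% and 40.3% in cocktail libraries. Tagln2 was thus the smaller part in every untreated library and the larger part in every cocktail library. Among the 4 tropomyosin genes the share of Tpm4 went from 44.1% ± 0.361 to 59.9% ± 0.51 and that of Tpm1 from 39.4% ± 0.296 to 27.4% ± 0.534 (SD, n = 4). Among the 3 calponin genes Cnn3 went from 71.5% ± 1.06 to 87.6% ± 0.362, with lower shares of Cnn1 and Cnn2 (SD, n = 4). In each of these shares the groups did not overlap.

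**Figure D3:**
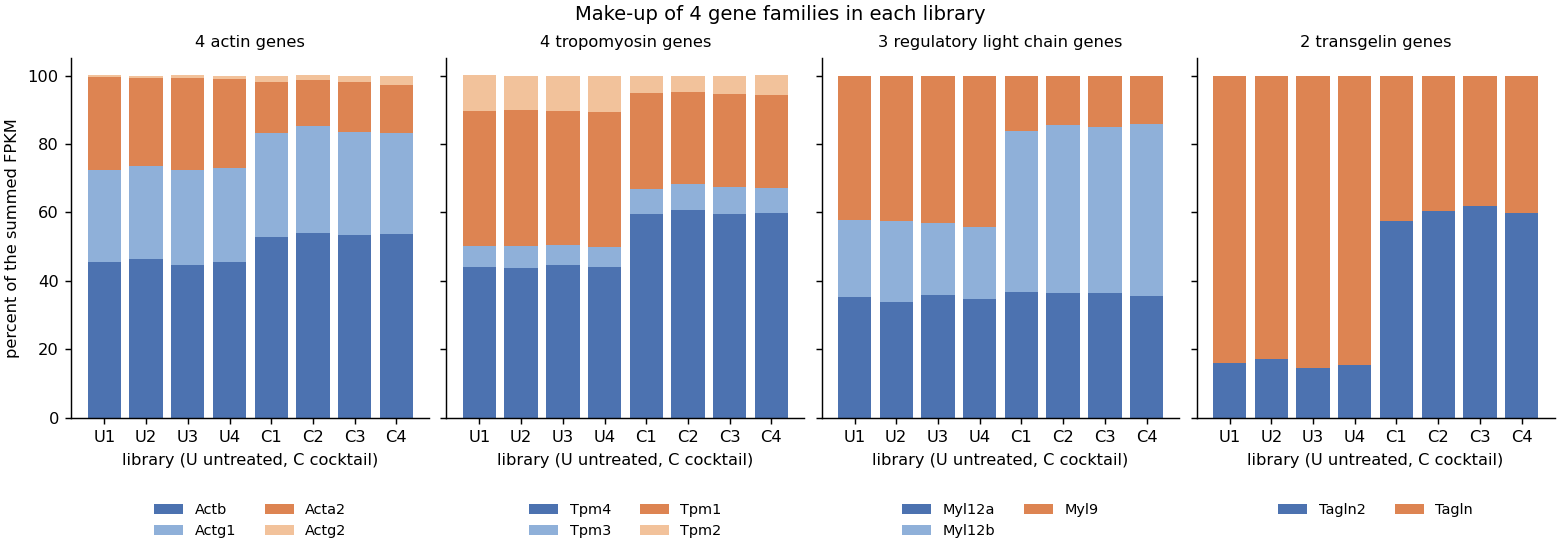
Share of each gene in the summed FPKM of its family, in percent, for the actins, tropomyosins, myosin regulatory light chains and transgelins; each bar is 1 library, U1 to U4 untreated and C1 to C4 cocktail. Genes of the contractile list are orange and their more widely expressed relatives blue; Acta2 takes 26.5% ± 0.716 of the actin sum without and 14.2% ± 0.634 with the cocktail (SD, n = 4).

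The 4 nonmuscle myosin genes fell by similar amounts. Myl12a, a regulatory light chain, stood at 234, 214, 241 and 239 FPKM in untreated and at 143, 143, 141 and 135 in cocktail libraries (log2 change -0.72, standard error 0.039; limma, adjusted p = 1e-08). Its neighbour Myl12b, not one of the 45 genes, encodes a nearly identical protein, overlaps it on the same strand in the GENCODE annotation though not by the listed gene bounds, and rose from 146 ± 3.41 to 189 ± 4.48 FPKM (SD, n = 4), so fragments of the pair could have been exchanged in the counting. Of the summed FPKM of Myl9, Myl12a and Myl12b, Myl9 held 43.0% ± 0.999 in untreated and 14.9% ± 0.939 in cocktail libraries, and Myl12b 22.1% ± 1.27 and 48.8% ± 1.4 (SD, n = 4). Myl6, the essential light chain, fell from 589 ± 21.2 to 363 ± 16.1 FPKM (SD, n = 4).

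The heavy chains fell in parallel. Myh10, of nonmuscle myosin IIB, stood at 157, 148, 150 and 151 FPKM in untreated and at 101, 106, 101 and 98.6 in cocktail libraries (log2 change -0.57, standard error 0.030; limma, adjusted p = 6.8e-09). Myh9, of nonmuscle myosin IIA, had a log2 change of -0.60, and its share of the sum of both was 44.9% ± 1.42 and 44.3% ± 1.04 (SD, n = 4), with overlapping groups.

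The kinases Rock1 and Rock2 differed from each other. Rock2 stood at 37.1, 35.2, 38.6 and 37.6 FPKM in untreated and at 18.8, 18.6, 18.7 and 18.6 in cocktail libraries, a 1.99-fold fall (log2 change -0.95, standard error 0.032; limma, adjusted p = 1.5e-10). Rock1 stood at 12.9, 13.4, 14.2 and 14.2 FPKM in untreated and at 12.1, 12.2, 14.0 and 12.9 in cocktail libraries, with overlap (log2 change -0.09; limma, adjusted p = 0.12). Rock1 was called lower without cocktail library 3 (limma, adjusted p = 0.023) and without cocktail libraries 3 and 4 (0.017). Both kinases act below the GTPase RhoA and phosphorylate myosin light chain. Rhoa itself went from 184 ± 4.03 to 171 ± 3.48 FPKM (SD, n = 4; log2 change -0.11; limma, adjusted p = 0.004), a call lost after median-ratio scaling (0.17). Rhob, a short-lived relative of RhoA, stood at 151, 151, 140 and 144 FPKM in untreated and at 151, 150, 146 and 141 in cocktail libraries, and the groups overlapped (limma, adjusted p = 0.89).

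Of 8 tested genes listed as cofactors and regulators of SRF 2 fell (25%) and 3 rose, with a median log2 change of 0.03. Among all tested genes 41.1% were called lower and 26.6% higher. Mkl1, which encodes the coactivator MRTF-A, rose from 7.66 ± 0.515 to 9.5 ± 0.349 FPKM (SD, n = 4; limma, adjusted p = 0.00028). Mkl2, which encodes MRTF-B, had means of 3.9 ± 0.122 without and 3.86 ± 0.146 FPKM with the cocktail (limma, adjusted p = 0.85; SD, n = 4). Fhl2, a LIM protein that binds SRF, fell from 9.87 ± 0.533 to 2.06 ± 0.328 FPKM (SD, n = 4; log2 change -1.83; limma, adjusted p = 4.9e-10). Micall2, of a family that acts on actin, rose 2.04-fold from 18.0 ± 0.686 to 36.6 ± 2.87 FPKM (SD, n = 4; limma, adjusted p = 7.1e-09). It is 1 of the 3 rises of the list but is not itself an established regulator of SRF. Scai, a suppressor of MRTF, had a log2 change of -0.17 (limma, adjusted p = 0.006). The ternary complex factors Elk1, Elk3 and Elk4, alternative partners of SRF, had log2 changes of 0.13, -0.04 and 0.06; Elk1 alone was called (limma, adjusted p = 0.024), and its call was lost without any 1 of untreated libraries 1 and 4 and cocktail libraries 1 and 3 (limma, adjusted p = 0.062, 0.064, 0.066 and 0.072) and without cocktail libraries 1 and 2 together (0.11). Myocd, myocardin, the smooth muscle and heart coactivator, and Abra did not pass the filter; Myocd stood at 0.126 ± 0.0148 and 0.236 ± 0.0522 FPKM (SD, n = 4).

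Other listed SRF targets, not all of them contractile, also fell for the most part. This list too was drawn up with earlier results of these data known, so it is not an independent test. The list holds 20 genes, and 15 of them passed the filter. Of 15 tested genes 11 fell (73.3%), 7 of them at least 2-fold (46.7%), and 3 rose, with a median log2 change of -0.85. The rises were those of Svil, Itga5 and Fblim1, with log2 changes of 0.61, 0.56 and 0.29. Among all tested genes 41.1% were called lower, 4.56% lower at least 2-fold and 26.6% higher. The deepest falls were those of Ctgf, a matricellular protein, from 397 ± 8.36 to 64.1 ± 6.39 FPKM, and Cyr61, its relative, from 382 ± 18.1 to 108 ± 13 FPKM (SD, n = 4); both are also known targets of YAP. Lmod1, leiomodin 1, a filament nucleator of smooth muscle, fell from 15.1 ± 1.38 to 4.23 ± 0.376 FPKM, and Synpo2, a stress fiber protein, from 5.59 ± 0.314 to 1.34 ± 0.142 FPKM (SD, n = 4). Log2 changes of these 4 genes were -2.62, -1.82, -1.62 and -1.49 (limma, adjusted p = 4.5e-12, 4.8e-10, 9.1e-10 and 5.7e-10).

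Smooth muscle and mural cells are another source of Acta2 and Tagln. Myh11 and Des, which define mature smooth muscle and pericytes, stood at 0.532 ± 0.112 and 0.336 ± 0.0759 FPKM and at 0.254 ± 0.0813 and 0.278 ± 0.0808 FPKM (SD, n = 4), under the filter. Of 9 mural markers 5 had a mean under 0.2 FPKM, Kcnj8 and Abcc9 among them, 1 was at 0 in every library, and 3 were called lower. The summed level of the 9 lay between 37.9 and 39.6 FPKM in untreated and between 29.6 and 34.4 in cocktail libraries, most of it from Pdgfrb and Notch3. The 9 fibroblast markers summed to between 106 and 130 FPKM in untreated and between 85.2 and 116 in cocktail libraries, with 3 called lower and 3 higher. Most of that sum came from Col1a1 and Col1a2. Col1a1 fell from 48.8 ± 6.14 to 34.4 ± 2.56 FPKM and Col1a2 from 53.7 ± 3.37 to 32.1 ± 5.71 FPKM (SD, n = 4). Lum, lumican, rose from 0.237 ± 0.0631 to 7.69 ± 1.03 FPKM (SD, n = 4). The part of such cells in the fall of the contractile genes was not tested.

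Of 15 tested genes of the Arp2/3 complex and its activators 7 fell (46.7%) and 2 rose, with a median log2 change of -0.06. That share is near the 41.1% called lower among all tested genes and is no result about the complex. Arpc1b rose from 59.2 ± 4.04 to 151 ± 6.52 FPKM (SD, n = 4), 2.55-fold, while its paralog Arpc1a had means of 58 ± 2.17 without and 56.2 ± 1.17 FPKM with the cocktail (limma, adjusted p = 0.23; SD, n = 4). Arpc1b made up 50.5% ± 2.23 of the pair without and 72.8% ± 1.09 with the cocktail (SD, n = 4). Actr3, the Arp3 subunit, fell from 93.3 ± 2.00 to 65.3 ± 1.36 FPKM (SD, n = 4), and Wasl and Arpc5l had log2 changes of -0.19 and -0.18. Among the subunits named here, Arpc1b was thus called higher, Actr3 and Arpc5l were called lower and Arpc1a was not called.

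Of 9 tested formins and Ena/VASP proteins 4 fell (44.4%) and 2 rose, with a median log2 change of -0.07. Diaph3, a formin, fell from 5.26 ± 0.487 to 2.11 ± 0.0917 FPKM (SD, n = 4), and Fmnl3, Fmnl2 and Daam1 had log2 changes of -0.31, 0.29 and -0.26. Of 18 tested capping, severing and turnover genes 7 fell (38.9%) and 6 rose, with a median of -0.01. Both shares are near the 41.1% called lower among all tested genes. Coro1c, Gsn and Cap1, which encode a coronin, gelsolin and the monomer-binding protein CAP1, had log2 changes of -0.81, -0.76 and -0.76, and Ssh1, a cofilin phosphatase, one of 0.45. All 8 of these genes were called.

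Of 14 tested genes of the focal adhesion list 8 fell (57.1%) and 2 rose, with a median of -0.21. Among all tested genes 41.1% were called lower and 26.6% higher. Lims2 and Bcar1 had log2 changes of -1.07 and -0.58. The rises were those of Pxn, at 0.14, and Vash1, at 0.76. Vash1 was on the list, but its product, vasohibin 1, is not an established focal adhesion protein.

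A second cytoskeleton gave a comparison. Of 13 tested genes of tubulins and microtubule proteins 9 fell (69.2%) and 1 rose, against 41.1% lower and 26.6% higher among all tested genes. Their median log2 change was -0.25, close to the -0.27 of the actin assembly list. Stmn1, stathmin, which takes up tubulin dimers, fell from 124 ± 5.21 to 49.4 ± 1.56 FPKM, and Tubb6, a beta-tubulin, from 59.9 ± 2.86 to 28.1 ± 2.36 FPKM (SD, n = 4). Tubb4b had a log2 change of -0.61 and Map1b, a microtubule-associated protein, one of 0.71.

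**Figure D4:**
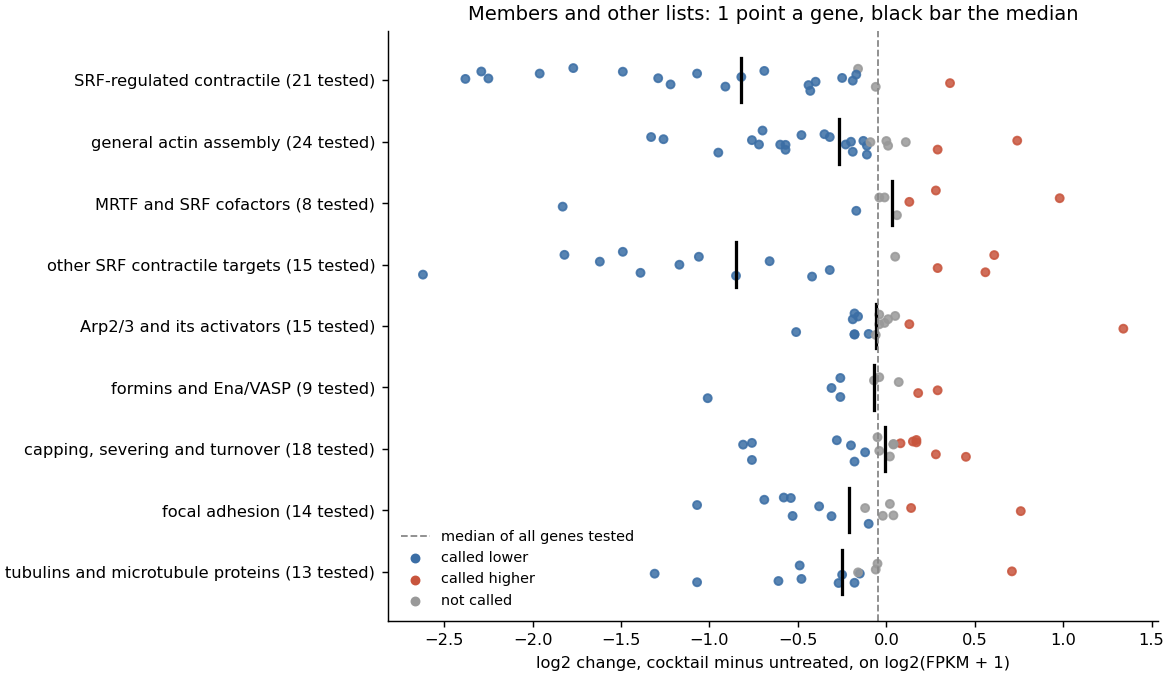
Log2 change, cocktail minus untreated on log2(FPKM + 1), for every tested gene of the 2 actin lists and of 7 further lists; black bars mark list medians and the dashed line the median of all genes tested, -0.05. The contractile list and the list labelled other SRF contractile targets, not all of them contractile, have medians of -0.82 and -0.85. Both were drawn up with earlier results of these data known. The remaining lists lie between -0.27 and 0.03.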

How the data were processed

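The authors deposited a table of FPKM per gene. Libraries were made from TRIzol RNA with a stranded mRNA kit, per the labels' protocols, and DESeq and the mm10 build are named in the submitters' processing notes. Which aligner and counter were used, and with what strand setting, is not given in the sources used here. The 45 genes and all other lists were chosen with earlier results of these data known. Fragments per library were recovered from whole-number ratios within genes, between 19195898 and 20640490. A count of 0 in a gene of 2 kb allows up to 3 fragments, 0.0727 to 0.0781 FPKM, covering counting error only.

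Values were tested as log2(FPKM + 1) with limma 3.58.1 in R 4.3.3 (mean-variance trend, Benjamini-Hochberg adjustment over the 11845 genes that reached 1 FPKM in 4 or more libraries), 4 untreated against 4 cocktail libraries. A pseudocount of 1 understates changes of low genes. Named were all 45 genes, all SRF cofactors, up to 4 tested genes with the largest absolute log2 change in each further list shown, and defining markers. Per-library values were given for changes of at least 1, for Srf and for the largest and smallest change in each role. Myl12b, Arpc1a, Myh11, Des, Svil, Itga5, Fblim1 and Pxn were named outside this rule, after their values were seen. Alternatives were another pseudocount, no filter, median-ratio scaling, voom on recovered fragments, robust variance, Actb and Actg1 counted as SRF-regulated, a replicate block and leaving out libraries. Promoter windows came from RefSeq, GRCm38.p6. 1 gene list and 1 gene of another list are not reported here.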

Additional observations from a re-analysis of the deposited data

Results flagged for a closer look

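Of 162 groups of 4 libraries examined for 1 library apart from the other 3, 3 were picked out, and chance picks about 1 in 20. Flnc was 18.6 FPKM in untreated library 4, against 16.1 to 16.3 in the other untreated libraries, a gap of 0.906 of the range. Actn4 was 221 FPKM in untreated library 4, against 205 to 207, a gap of 0.862 of the range. Daam1 was 8.57 FPKM in cocktail library 2, against 7.95 to 8 in the other cocktail libraries, a gap of 0.919 of the range.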

How the results depend on the processing

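Of the 39 called genes among the 45, 35 kept their call and direction in each of 16 alternatives; the exceptions were Srf, Tpm4, Actn4 and Rhoa. Leaving out 1 library at a time gave 36 to 37 genes called lower, median-ratio scaling 33 and leaving out cocktail libraries 3 and 4 gave 34. The contractile median was -0.87 with a pseudocount of 0.1, -0.76 after median-ratio scaling, -0.88 with voom and -0.91 with Actb and Actg1 added. The assembly median was -0.21 after median-ratio scaling and -0.22 without Actb and Actg1, which left 0 genes with a 2-fold fall. Changes of sign were seen in genes that were not called. After median-ratio scaling the log2 change was 0.062 for Pfn1, 0.04 for Mkl2 and 0.024 for Elk3. Without cocktail libraries 1 and 2 it was 0.07 for Actg2, -0.029 for Rhob and 0.029 for Elk3, and without cocktail libraries 3 and 4 it was 0.025 for Pfn1. With 1 library left out at a time, values ran from -0.02 to 0.026 for Pfn1, from -0.015 to 0.03 for Rhob and from -0.03 to 0.0056 for Mkl2. The cause was not tested. Deviations of same-numbered libraries from their group means had correlations between -0.044 and 0.086, against -0.105 to 0.086 over all pairs. The libraries numbered 2 and 3 gave 0.078 and 0.086, the highest of all pairs. Values this small cannot decide whether the numbers mark paired cultures. With the replicate block 36 of the 45 genes were called lower and 3 higher, as without it. Mylk, Actg2 and Filip1l rest on 234 to 305, 263 to 567 and 197 to 391 fragments; how far depth limits them was not tested.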
